A study of Mus musculus with 9 samples.

Results

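Egr1, Egr2, Egr3, Nr4a1, Nr4a2 and Nr4a3 are 6 genes of the immediate-early response, taken by their symbols from the 53465 mouse genes counted in each of 9 heart libraries. All 6 matched an Ensembl gene, and all 6 were among the 13825 genes that had enough counts to be tested. They were chosen by their CPM in these same 9 libraries, with the differences between the 3 groups already known, so their levels and fold changes are given as a description and none of their p-values is printed. How many passed the threshold is given beside the share of all genes that did. Tests are given for other genes, though their lists were also chosen with earlier results of these data known.

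The libraries were made from RNA of hearts of NOD-SCID mice, a strain with severe immunodeficiency, and the labels name the border zone of the infarct as the sampled region. The 3 groups of 3 libraries were sham surgery (sham), ligation of a coronary artery (ligation), and the same ligation followed by implantation of FOXO3-GE-MPCs (cells). These are known from the published work as human mesenchymal progenitor cells with an engineered FOXO3 gene. The labels use the same term for the sampled region of sham hearts. The labels give no age, no sex and no time between surgery and sampling, and no group with unmodified cells was analysed here. In 2 of the 3 cell libraries the source field writes a different FOXO number from the title and treatment fields, and the title was followed. Sham replicates 1 and 2, and ligation replicates 2 and 3, carry the same name stem in the file headers, and nothing in the labels says that the libraries of a group came from separate animals. P-values therefore measure the spread between these libraries, which may be partly technical.

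Immediate-early genes are transcribed within minutes of a stimulus from factors that are already in the cell, without new protein synthesis. Egr1, Egr2 and Egr3 encode zinc finger transcription factors that bind the same GC-rich site and are switched on by growth factors, stretch and ischaemia through MAP kinases and serum response factor. The Egr proteins also induce the co-repressors Nab1 and Nab2, which hold the Egr factors in check. Nr4a1 (Nur77), Nr4a2 (Nurr1) and Nr4a3 (Nor1) encode orphan nuclear receptors that act without a known natural hormone and are switched on by cyclic AMP, calcium and stretch. In the heart the Nr4a receptors are known for responses to adrenergic stimulation, and in macrophages and T cells for restraint of inflammation.

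Depth was even apart from a shallow ligation library, with 4549268 to 7515052 gene counts per library. Levels are given as CPM, the count of a gene relative to its library's total, after TMM scaling that sets the bulk of genes equal between libraries, and 3 counts equalled 0.375 to 0.639 CPM. All 8 cardiomyocyte markers were tested, and their summed level of 34137 to 47123 CPM fits the labelled tissue. T cell transcripts were near 0: the 9 markers together summed to 4.63 to 8.19 CPM, Cd3d had no count in any library, and neither of the 2 that could be tested passed in any comparison, though 1 did for cells against sham without cell replicate 2. Mitochondrially encoded genes took 19.1% to 19.9% of counts in sham, 12.5% to 13.9% in ligation and 14.3% in every cell library.

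The DNA before the start sites of Egr2, Nr4a1, Nr4a2 and Nr4a3 is shown from RefSeq (GRCm38.p6, the mm10 build). No window of Egr1 or Egr3 was used. Each sequence runs 5′ to 3′ on the gene's own strand and ends at or before the RefSeq start, leaving out any annotated exon. Capitals mark the CArG box, which binds serum response factor, the cAMP response element core TGACG in either direction, and the Egr site GCGGGGGCG in either direction. The stretches are chr10:67537619-67537868 (plus strand, inside the annotated gene span but in no exon) for Egr2, chr15:101266596-101266845 (plus, likewise) for Nr4a1, chr2:57124004-57124253 (minus, upstream of the gene) for Nr4a2 and chr4:48045055-48045152 (plus, upstream of the gene) for Nr4a3.
Egr2: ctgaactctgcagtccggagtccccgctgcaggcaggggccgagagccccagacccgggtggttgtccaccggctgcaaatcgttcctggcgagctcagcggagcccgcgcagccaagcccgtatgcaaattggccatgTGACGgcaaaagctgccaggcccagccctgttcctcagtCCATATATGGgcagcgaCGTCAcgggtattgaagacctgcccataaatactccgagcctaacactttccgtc
Nr4a1: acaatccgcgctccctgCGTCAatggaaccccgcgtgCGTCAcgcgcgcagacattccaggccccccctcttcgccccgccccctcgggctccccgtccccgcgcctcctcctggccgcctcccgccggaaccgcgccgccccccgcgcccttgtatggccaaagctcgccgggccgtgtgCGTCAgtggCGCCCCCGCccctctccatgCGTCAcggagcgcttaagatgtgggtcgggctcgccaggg
Nr4a2: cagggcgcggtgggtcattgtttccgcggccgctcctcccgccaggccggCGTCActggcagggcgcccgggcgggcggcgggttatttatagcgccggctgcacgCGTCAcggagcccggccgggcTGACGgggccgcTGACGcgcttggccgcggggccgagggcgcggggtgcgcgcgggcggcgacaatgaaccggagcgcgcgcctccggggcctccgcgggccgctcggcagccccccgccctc
Nr4a3: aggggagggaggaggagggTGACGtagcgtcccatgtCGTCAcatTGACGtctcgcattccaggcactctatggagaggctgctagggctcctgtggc

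Egr2 holds 1 CArG box, 72 bases before the start, which 1.4% of 27025 mouse promoters hold in the same 250 bases. It also holds 2 cAMP cores, and 17.9% of promoters hold at least 1. Nr4a1, Nr4a2 and Nr4a3 each hold 4 cAMP cores in the 250 bases before their start, and 0.152% of promoters hold at least 4. The last core of Nr4a3 lies nearer the start, outside the printed stretch. Nr4a1 alone of the 4 genes also holds the Egr site, 60 bases before its start, and 2.56% of promoters hold that site. No window of these genes held the full element TGACGTCA (1.62% of promoters), the Nr4a monomer site AAAGGTCA (1.31%) or the other Egr site GCGTGGGCG (0.54%). Nr4a2 also has an annotated transcript that starts 8965 bases downstream of the start shown, whose promoter is not shown. The matches describe letters in these windows only.

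In the border zone, 5 of the 6 transcripts were lowest in sham, intermediate after ligation and highest in ligated hearts with cells, without any overlap of the 3 groups. Among all genes tested 3.37% had that order without overlap. For Nr4a3 the second gap was narrow, with 15.4 CPM in the highest ligation library against 15.7 CPM in the lowest cell library. Egr1 reached the highest level, at 127 CPM with cells against 18.4 in sham, and Egr2 and Egr3 differed most in proportion, 14.8-fold and 15.9-fold between sham and cells. Nr4a2 stood apart, with overlapping values in all 3 groups. A bulk library cannot tell more cells of a type from more RNA per cell. Counts are of mouse genes, and whether reads of the implanted human cells entered them was not tested.

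**Figure D1:**
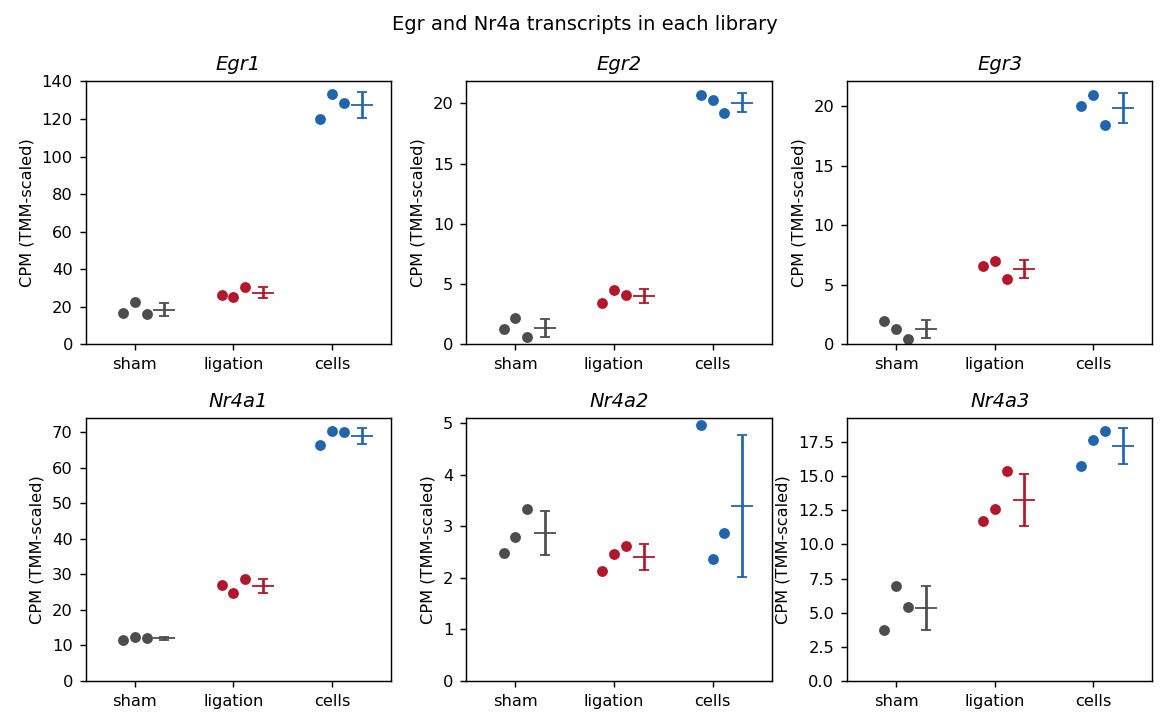
Level of each transcript (CPM, axis from 0) in the 3 sham, 3 ligation and 3 cell libraries, 1 point per library, with the group mean and SD beside the points. In every panel but Nr4a2 the groups step up from sham to ligation to cells without overlap, narrowly for Nr4a3 at the second step. Egr1 in the cell libraries lies between 120.0 and 134 CPM.

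Counted against the threshold of an adjusted p of 0.05 in edgeR's quasi-likelihood test over all genes, 5 of the 6 were past it and higher after ligation than in sham, where 20.1% of genes tested were past it and higher and 18% past it and lower. In ligated hearts with cells against ligation alone the count was 4 of 6, where 4.19% of genes were past it and higher and 5.69% past it and lower. Cells against sham gave 5 of 6, beside 21% of genes higher and 20% lower. The CPM ranges of 5 of the 6 lay apart and higher in each comparison, beside 25%, 13.2% and 25.4% of genes in the same order. Since the genes were chosen with these differences known, nothing is read from the counts. Each pair of comparisons shares the 3 libraries of a group, so they are not independent of each other.

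Egr1 encodes the best-studied Egr factor, a rapid switch after vascular and myocardial injury. It stood at 16.7, 22.2 and 16.2 CPM in the sham libraries, at 26.0, 25.3 and 30.8 CPM after ligation and at 120.0, 134 and 129 CPM with cells. The 3 groups did not overlap, and the gap between the cell libraries and the others was by far the wider. The difference was 0.58 on the log2 scale (SE 0.117) from sham to ligation and 2.21 (SE 0.0929) from ligation to cells, the latter a 4.62-fold difference. By size of that difference Egr1 was number 10 from the top of 13825 genes.

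Egr2, which is also the master factor of myelin genes in Schwann cells, was nearly silent in sham, at 1.25, 2.14 and 0.635 CPM. That is 7, 13 and 4 counts, so counting error alone is large there. After ligation Egr2 stood at 3.41, 4.49 and 4.13 CPM, and with cells at 20.7, 20.3 and 19.2 CPM. The cell libraries lay close together and far above all others. Egr2 differed by 1.59 on the log2 scale (SE 0.323) from sham to ligation and by 2.30 (SE 0.199) from ligation to cells, a 4.91-fold difference and number 8 from the top.

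Egr3, which acts with Egr2 in lymphocytes and muscle spindles, had levels like those of Egr2. It measured 1.96, 1.32 and 0.476 CPM in sham, with only 3 counts in the lowest library. The values were 6.61, 6.95 and 5.50 CPM after ligation and 20, 20.9 and 18.4 CPM with cells. All ligation libraries lay above all sham libraries and below all cell libraries. Here the first step was the larger, 2.34 on the log2 scale (SE 0.31) from sham to ligation against 1.65 (SE 0.187) from ligation to cells.

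Nr4a1, the receptor that marks acute signalling in many cell types, was the steadiest of the 6 within groups. It stood at 11.6, 12.4 and 12.2 CPM in sham, 27.1, 24.7 and 28.6 CPM after ligation and 66.5, 70.5 and 70.0 CPM with cells. Its groups lay well apart, with a coefficient of variation of 3.50%, 7.28% and 3.13% within them. The steps were about equal, 1.15 (SE 0.105) and 1.36 (SE 0.0815) on the log2 scale.

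Nr4a3 followed the first step and hardly the second. It stood at 3.74, 6.92 and 5.40 CPM in sham, 11.7, 12.6 and 15.4 CPM after ligation and 15.7, 17.6 and 18.3 CPM with cells. The highest ligation library and the lowest cell library were nearly equal, though they did not cross. The log2 difference was 1.31 (SE 0.195) from sham to ligation and 0.36 (SE 0.159) from ligation to cells.

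Nr4a2, best known for its part in dopamine neurons, was low throughout. Its values were 2.49, 2.80 and 3.33 CPM in sham, 2.13, 2.46 and 2.63 CPM after ligation and 4.96, 2.36 and 2.88 CPM with cells. The groups overlapped, and cell replicate 1 was the only library above 4 CPM. The log2 differences were -0.24 (SE 0.347) after ligation and 0.48 (SE 0.33) with cells against ligation, the latter 0.103 without cell replicate 1. With cells against sham the difference was 0.23 (SE 0.325), and it turned to -0.139 without cell replicate 1. With 10 to 35 counts per library, a change of the size seen in Nr4a3 with cells would lie close to 1 SE of Nr4a2.

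**Figure D2:**
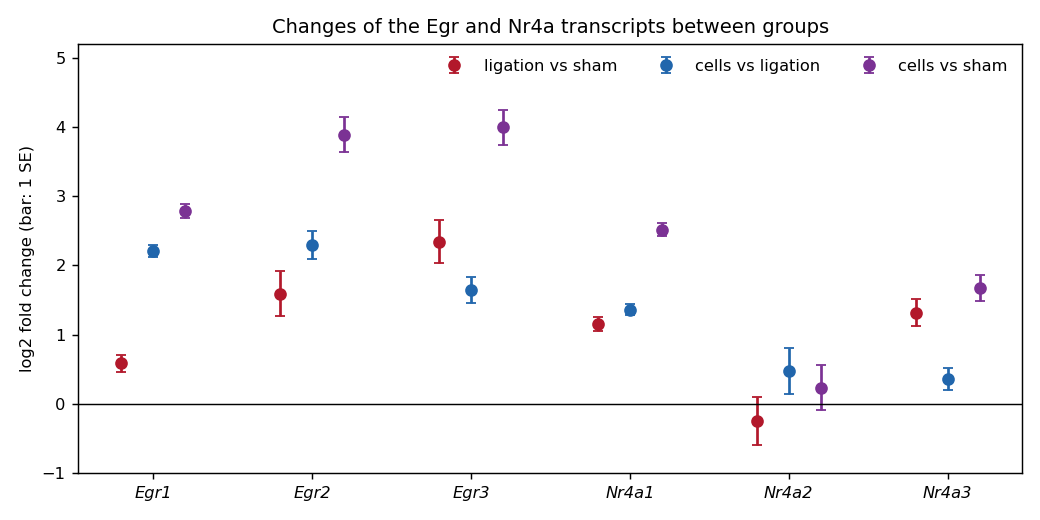
Log2 fold change of each transcript (vertical axis) in the 3 comparisons of groups, with bars of 1 SE from the edgeR fit over 9 libraries. From ligation to cells Egr1 and Egr2 lie highest, at 2.21 and 2.30, while Nr4a3 at 0.36 and Nr4a2 at 0.48 lie nearest to 0.

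The make-up of the summed counts of the 6 genes shifted as well, which ratios of raw counts within a library show without any scaling. Egr1 had 1.32 to 1.80 counts per Nr4a1 count in sham, 0.961 to 1.07 after ligation and 1.80 to 1.90 with cells, so ligation stood below both other groups. Nr4a3 had 0.323 to 0.56 counts per Nr4a1 count in sham, 0.433 to 0.537 after ligation and 0.237 to 0.261 with cells, the cell libraries lying below both other groups. Egr2 ran at 0.636 to 1.63 counts per Egr3 count in sham, on very few counts, at 0.516 to 0.75 after ligation and at 0.967 to 1.04 with cells, so that sham overlapped both. Egr1 made up 42.3% to 46.6% of the summed counts of the 6 genes in sham, 33.1% to 35.3% after ligation and 48.4% to 50.4% with cells. Nr4a2 made up 5.86% to 8.71% of that sum in sham and 0.889% to 2.002% with cells.

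Levels between genes were compared per kilobase of annotated exon. In sham the order was Egr1 at 4.10 ± 0.747 CPM per kilobase (SD, n = 3) and Nr4a1 at 3.43 ± 0.12, followed at a distance by Nr4a3, Nr4a2, Egr2 and Egr3, whose neighbours in that order overlapped. After ligation Nr4a1 led at 7.64 ± 0.557, above Egr1 at 6.10 ± 0.66 CPM per kilobase, without overlap. Nr4a3 came next, then Egr3 and Egr2, which overlapped, and Nr4a2 was last. With cells Egr1 led again at 28.4 ± 1.53 CPM per kilobase, before Nr4a1 at 19.7 ± 0.615, Egr2 at 5.90 ± 0.234 and Egr3 at 4.49 ± 0.287. Nr4a3 at 2.88 ± 0.221 and Nr4a2 at 0.838 ± 0.34 CPM per kilobase closed the order, and no neighbours overlapped. Egr2 thus passed from the fifth place in sham and ligation to the third with cells.

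The closest profiles among all other genes were sought over the 9 libraries, as the root-mean-square difference between 2 genes' centred log2 CPM. Fos, the founding AP-1 immediate-early gene, came nearest to Nr4a1 at 0.217, to Egr2 at 0.500 and to Egr3 at 0.578 log2 units. The median gene was 1.04, 1.59 and 1.63 log2 units away from these 3. Within the family, the closest pairs were Egr1 with Nr4a1, at 0.372, and Egr2 with Egr3, at 0.445. Egr1 had Mybphl (0.358), Hspa1b (0.387) and Rxfp1 (0.388) as its nearest genes. After Fos, Nr4a1 was nearest to Gm32849 (0.253) and Adamts8 (0.259), Egr2 to Orm1 (0.588) and Adamts8 (0.662), and Egr3 to Has1 (0.588) and Saa3 (0.611). For Nr4a3 the nearest were Gm5898 (0.185), Irs2 (0.201) and Slc25a1 (0.208). The flat Nr4a2 was nearest to Gm12715 (0.16), Rfxank (0.168) and Rian (0.17), and 13021 genes were nearer to it than any of the other 5 factors.

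Many other immediate-early genes were also higher with cells. Of 30 such genes, all tested, 17 rose with cells against ligation and none fell, beside 4.19% and 5.69% of all genes, with a median log2 change of 0.37 beside 0.0020 over all genes tested. Fos stood at 10.01, 8.54 and 8 CPM after ligation and at 25.8, 23.9 and 25.2 CPM with cells, a rise of 1.51 (SE 0.139, edgeR adjusted p 1.84e-07). Atf3, a stress-induced AP-1 partner, rose by 1.19 (edgeR adjusted p 1.82e-05), Klf2, a shear-stress factor of endothelium, by 0.82 (edgeR adjusted p 7.49e-09) and Junb by 0.52 (edgeR adjusted p 3.15e-05). Fosb rose by 1.35 (edgeR adjusted p 0.0381) on very low levels. That call was lost by DESeq2 (adjusted p 0.119) and without any single ligation or cell library, the adjusted p by edgeR then running from 0.0512 to 0.161. It was also lost with no filter on low counts (adjusted p 0.0594), with the replicate block (0.0622) and with libraries summed by header stem (0.0679).

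After ligation the same list was mixed. There 14 of the 30 rose and 2 fell against sham, beside 20.1% and 18% of all genes, with a median of 0.27 against 0.0080 over all genes. Ccn2, a matricellular growth factor target, rose by 2.40 (edgeR adjusted p 8e-18), Fos by 1.48 (edgeR adjusted p 4.67e-06) and Myc by 1.27 (edgeR adjusted p 0.000747). With cells Ccn2 differed from ligation by -0.13 and Myc by -0.20, and neither passed (edgeR adjusted p 0.0955 and 0.669), though Ccn2 did with library totals alone (-0.163, adjusted p 0.0321). Klf2 fell by 0.21 after ligation (edgeR adjusted p 0.0117), a call that was lost when library totals alone set the scale (-0.0187) and without sham replicate 3 or ligation replicate 2. Against sham, 23 of the 30 rose with cells and none fell, beside 21% and 20% of all genes.

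MAP kinase feedback genes, which encode phosphatases and adaptors that dampen the signal upstream of the Egr genes, rose in part. Of 15 listed and 14 tested, 4 rose with cells against ligation and none fell, beside 4.19% and 5.69% of all genes, with a median of 0.16. Dusp1, the phosphatase induced with Fos and Egr1, stood at 68.2 to 83.0 CPM after ligation and at 132 to 141 CPM with cells, a rise of 0.82 (SE 0.0711, edgeR adjusted p 8.22e-08). Its annotated span overlaps Ergic1 and the pseudogene Gm8225 on the other strand, and no strand setting of the counting is given, so its count is uncertain. Errfi1, an inhibitor of EGF receptors, rose by 0.78 (edgeR adjusted p 8.65e-08) and Dusp8 by 0.65 (edgeR adjusted p 0.000144). After ligation 4 of the 14 rose and 3 fell, beside 20.1% and 18% of all genes. Dusp1 then differed from sham by -0.10 (edgeR adjusted p 0.327), which turned to 0.0921 with library totals alone.

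Partners and upstream regulators were read against the shares of all genes. Of 23 listed and 22 tested, 3 rose and 1 fell with cells against ligation, beside 4.19% and 5.69% of all genes, with a median of 0.016. The total of 4 became 2 by DESeq2, 1 without ligation replicate 2, 2 without ligation replicate 3, 0 without cell replicate 2 and 2 without cell replicate 3. After ligation 6 rose and 3 fell, beside 20.1% and 18% of all genes, a total of 9 that became 16 with library totals alone. Srf, the factor that binds the CArG box, was at 107 ± 10.2 CPM (SD, n = 3) in sham, 134 ± 7.02 after ligation and 160.1 ± 9.85 with cells. It rose by 0.33 after ligation (edgeR adjusted p 0.000969) and by 0.26 with cells (edgeR adjusted p 0.0203), the latter lost without ligation replicate 1 or 2 or cell replicate 2 or 3. Its coactivator gene Mrtfa rose by 0.73 after ligation (edgeR adjusted p 0.000634) and fell by 0.57 with cells (edgeR adjusted p 0.0139). That fall was lost without ligation replicate 3 or cell replicate 2. Creb1, which binds the cAMP element, rose by 0.33 with cells (edgeR adjusted p 0.0132), a call lost in DESeq2 and without ligation replicate 2 or cell replicate 2. Rxrg, a heterodimer partner of Nr4a receptors, fell by 0.82 after ligation (edgeR adjusted p 9.59e-08) and rose by 0.28 with cells against ligation (edgeR adjusted p 0.0379). That rise was lost by DESeq2 (adjusted p 0.0706), with library totals alone, 2-group fits, the replicate block or summed header stems (0.0541 to 0.109), and without ligation replicate 2 or 3 or cell replicate 2 or 3 (0.104 to 0.168).

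The co-repressor genes of the Egr factors did not follow the size of the Egr change. Nab2 was at 9.61, 10.9 and 8.57 CPM in sham, 11.5, 14.0 and 12 CPM after ligation and 14.8, 12.9 and 14.8 CPM with cells. It rose by 0.55 from sham to cells (SE 0.152, edgeR adjusted p 0.00667), while the steps of 0.38 and 0.17 between did not pass (edgeR adjusted p 0.0646 and 0.539). The first of these passed with library totals alone (adjusted p 0.00597) and without sham replicate 2 (0.0458). Nab1 rose by 0.34 after ligation (edgeR adjusted p 0.00643) and differed by -0.10 with cells against ligation (edgeR adjusted p 0.582). Egr4, the last member of the Egr family, had 0 counts in all 9 libraries, which allows up to 0.375 to 0.639 CPM.

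Genes reported as Egr targets went both ways. Of 17 listed and 16 tested, 7 rose and 2 fell after ligation, where 20.1% of all genes rose and 18% fell, with a median of 0.25. With cells against ligation 1 rose and 3 fell, where 4.19% of all genes rose and 5.69% fell, with a median of -0.0078. Thbs1, encoding thrombospondin, rose in both steps, by 1.28 (edgeR adjusted p 4.16e-10) and by 0.63 (edgeR adjusted p 6.17e-06). Cd44 fell by 0.38 with cells (edgeR adjusted p 0.0258), a call lost by DESeq2 (adjusted p 0.0766) and without ligation replicate 1 or 3 or cell replicate 1 or 2. Tgfb1, named after its value was seen, fell by 0.37 (edgeR adjusted p 0.00744, lost without ligation replicate 2).

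**Figure D3:**
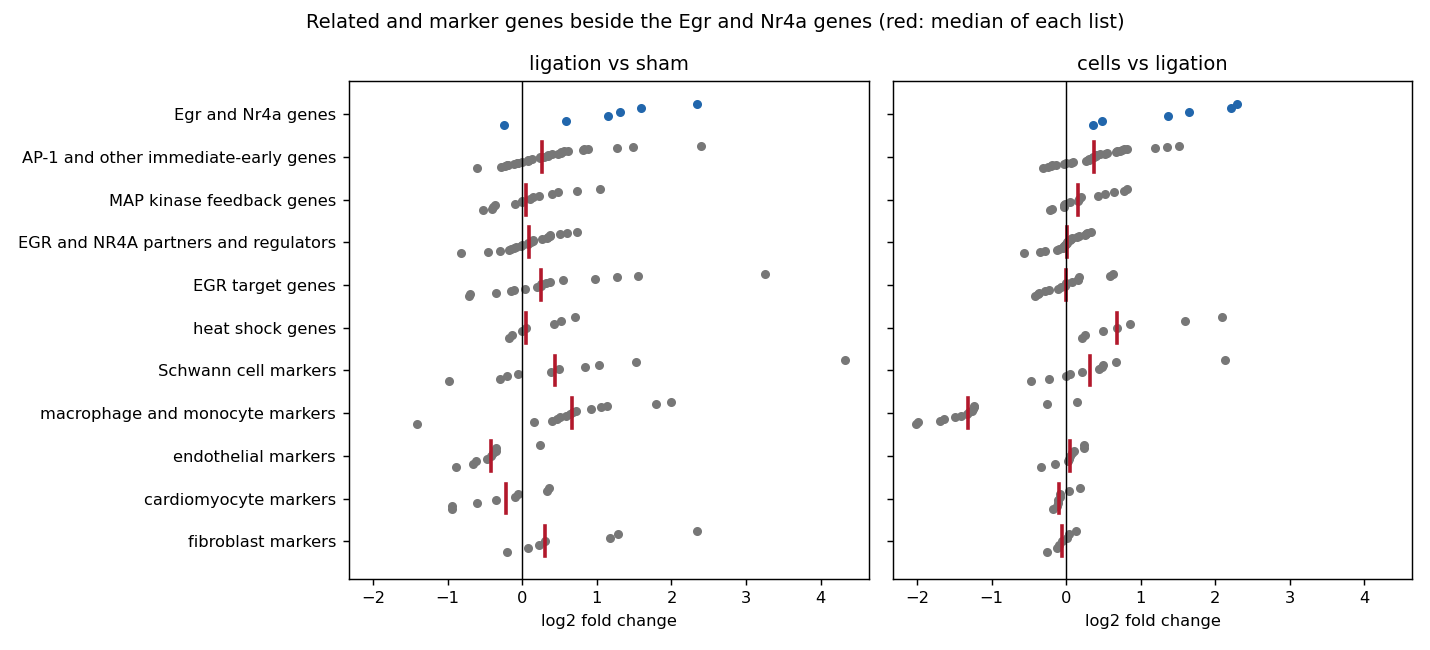
Log2 fold change (horizontal axis) of the 6 genes in blue and of each tested gene of 10 lists in grey, with the median of each list in red, for ligation against sham and cells against ligation. With cells the 30 other immediate-early genes have a median of 0.37, the 7 heat shock genes 0.68 and the macrophage markers -1.32.

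Egr2 is also the factor that switches on myelin genes in Schwann cells, so markers of those cells were read beside it. Of 12 listed and 10 tested, 4 rose and 1 fell after ligation, beside 20.1% and 18% of all genes, with a median of 0.44. With cells against ligation 1 rose and none fell, beside 4.19% and 5.69% of all genes, with a median of 0.33, and the count was 2 with no filter on low counts and without cell replicate 3. Sox10, the lineage factor of Schwann cells, was at 3.56, 3.29 and 5.08 CPM in sham, 4.05, 3.04 and 2.88 CPM after ligation and 6.81, 5.27 and 3.46 CPM with cells. Its groups overlapped (edgeR adjusted p 0.176 for cells against ligation). Mbp, a structural myelin gene, was at 6.94, 10.2 and 6.51 CPM in sham, 18.8, 12.6 and 17.3 CPM after ligation and 20.99, 24.4 and 20.02 CPM with cells, without overlap. Mbp rose by 1.02 after ligation (edgeR adjusted p 0.000185) and differed by 0.44 with cells (edgeR adjusted p 0.0841), the latter past the threshold with no filter on low counts (adjusted p 0.0343). The summed level of the 12 markers ran from 146 to 153 CPM in sham, was 212 CPM in each ligation library, and ran from 239 to 261 CPM with cells. The part of Schwann cells in the level of Egr2 was not tested. No annotated gene overlaps any of the 6 factors.

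**Figure D4:**
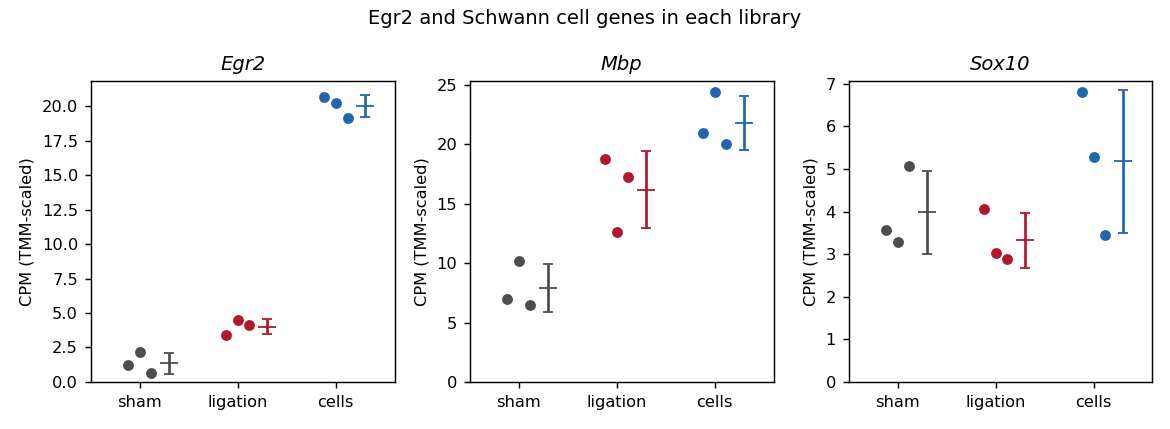
Level (CPM, axes from 0) of Egr2 and of the Schwann cell genes Mbp and Sox10 in each of the 9 libraries, 1 point per library, with the group mean and SD beside the points. Egr2 and Mbp step up from sham to ligation to cells without overlap, while Sox10 overlaps between groups.

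Heat shock genes, which encode chaperones of the stress response, were higher with cells as well. All 7 listed rose with cells against ligation, where 4.19% of all genes rose, with a median of 0.68. After ligation 2 rose and 1 fell, beside 20.1% and 18% of all genes, a total of 3 that became 5 with library totals alone. Hspa1b stood at 10.9, 10.1 and 11.5 CPM after ligation and at 45.2, 40.1 and 53.2 CPM with cells, a rise of 2.09 (SE 0.163, edgeR adjusted p 1.63e-08). Hspa1a rose by 1.60 (edgeR adjusted p 0.00405) and Dnajb1 by 0.86 (edgeR adjusted p 1.07e-06). The sequences of Hspa1a and Hspa1b are nearly identical, so the split between them is uncertain. The summed level of the list was 2044 to 2085 CPM in sham, 1961 to 2117 in ligation and 2415 to 2668 with cells. The part of a stress or handling response in the levels of the Egr and Nr4a transcripts was not tested.

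Macrophage and monocyte markers, the cells where Nr4a1 and Egr2 are also well known, went the other way. Of 15 listed and 14 tested, 12 rose and 1 fell after ligation, beside 20.1% and 18% of all genes. With cells against ligation none rose and 13 fell, beside 4.19% and 5.69% of all genes, with a median of -1.32. Their summed level was 885 to 945 CPM in sham, 1570 to 1589 after ligation and 724 to 740 with cells, below both other groups. Ccr2, the receptor of recruited monocytes, fell by 1.99 with cells (edgeR adjusted p 3.71e-07) and the macrophage marker Adgre1 fell by 1.69 (edgeR adjusted p 3.26e-08). The part of these cells in the Egr and Nr4a levels was not tested.

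Markers of other cell classes also passed at the second step. With cells against ligation 2 of 9 endothelial markers rose and 1 fell, 1 of 8 cardiomyocyte markers rose and 1 fell, and 1 of 7 fibroblast markers fell, beside 4.19% of all genes that rose and 5.69% that fell. The cardiomyocyte total of 2 ran from 0 without cell replicate 1 to 4 with library totals alone, and the fibroblast count was 2 without ligation replicate 1. The summed endothelial level was 1594 to 1715 CPM after ligation and 1704 to 1756 CPM with cells, and the fibroblast sum 3060 to 3115 and 2962 to 3038 CPM. After ligation 8 of the 9 endothelial markers and 5 of the 8 cardiomyocyte markers fell, beside 18% of all genes, and 5 of the 7 fibroblast markers rose, beside 20.1%. In the other direction 1 endothelial and 2 cardiomyocyte markers rose and 1 fibroblast marker fell. The part of these shifts in the first step of the Egr and Nr4a transcripts was not tested.

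**Figure D5:**
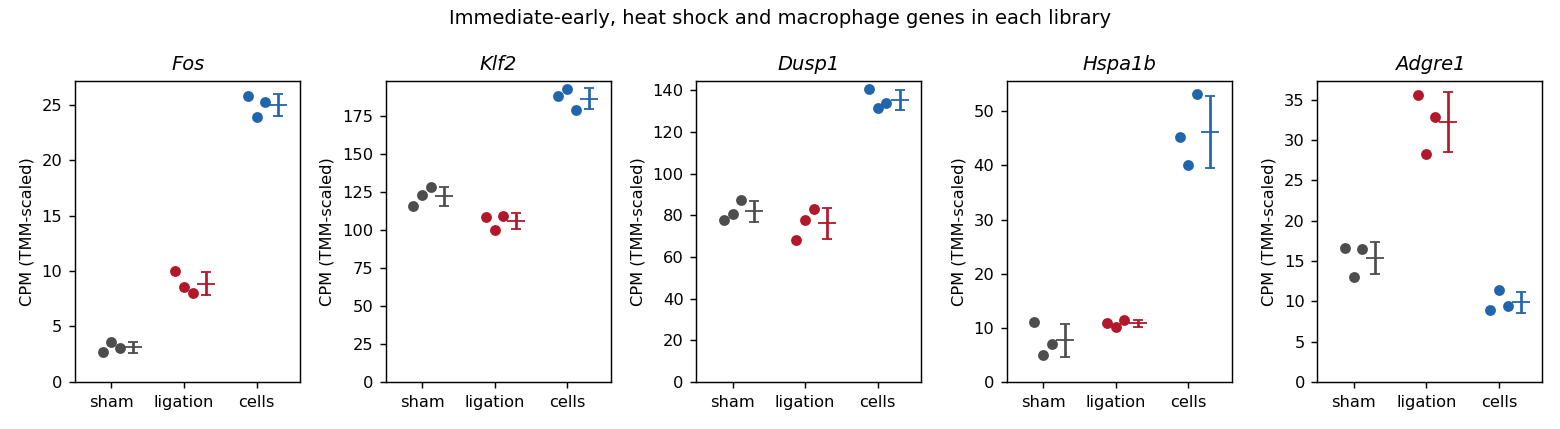
Level (CPM, axes from 0) of Fos, Klf2, Dusp1, Hspa1b and the macrophage marker gene Adgre1 in each of the 9 libraries, with the group mean and SD. Fos steps up in both comparisons, Klf2, Dusp1 and Hspa1b set the cell libraries above all others, and Adgre1 is lowest there, at 8.94 to 11.4 CPM.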

How the data were processed

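RNA of 9 NOD-SCID mouse heart libraries was sequenced after TRIzol extraction and NEBNext Ultra library preparation, per the labels' protocols. The authors deposited raw read counts per Ensembl gene, 1 file per library, on build mm10 per the submitters' processing notes. The aligner, counter, strand setting and annotation release are not given in the sources used here. The 5 closing summary lines were left out of library sizes: reads outside genes were 4.14% to 4.91% of reads and ambiguous reads 8.09% to 8.72%. Groups and replicate numbers came from the titles.

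Symbols were found for 53274 of 53465 IDs, and exon lengths came from GENCODE M21. Counts were filtered (filterByExpr), scaled (TMM) and fitted with edgeR 4.0.16 in R 4.3.3 as 1 quasi-likelihood model over 9 libraries with 6 residual degrees of freedom. P-values were adjusted with Benjamini-Hochberg over 13825 genes, two-sided, with a threshold of 0.05, and SE is the log2 change over the square root of F. "Rose" and "fell" mean past that threshold. The code was tested on simulated data. Alternatives were RLE and unscaled libraries, no filter, DESeq2 1.42.0, 2-group fits, a replicate block, removal of mitochondrial genes, leaving out each library, and, chosen after seeing the headers, summing libraries with a shared header stem.

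The members, the 13 gene lists and the tests were chosen with earlier results of these data known. Named genes are the 6 factors, Nab1, Nab2, Egr4, Srf, Fos, Junb and Dusp1, the 4 largest changes of each list and comparison, and the 3 nearest profiles per factor with a mean of at least 1 CPM. Promoters were searched on both strands over the 250 bases before a start, 1 window per gene for the background. For Egr2, with 5 RefSeq starts, the window at the principal GENCODE transcript was taken. Intervals cover counting error only. Some genes that the rule names are not reported here.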

Additional observations from a re-analysis of the deposited data

How the results depend on the processing

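Members past 0.05 numbered 5, 4 and 5 in the 3 comparisons (the step of ligation, the step of cells, and both together) under each scaling, filter, test and left-out library tried, and also when libraries with a shared header stem were summed. The sign of a member turned once: Nr4a2 in cells against sham became -0.139 without cell replicate 1, and its range over the fits without 1 library was -0.139 to 0.443. Among other named genes only Dusp1 in ligation against sham turned, to 0.0921 with library totals alone, a scale that moves the median gene by 0.197 in that comparison and puts 78.7% of called genes higher against 52.7%. With cells against ligation it put 32% higher against 42.4%, and with cells against sham 73.1% against 51.2%. Over all genes, calls ran from 4482 to 5459, 951 to 1398 and 5055 to 5746 without 1 library. The replicate numbers did not pair the libraries (correlations of same-numbered deviations across genes from -0.123 to 0.144), and with the replicate block the counts of all genes were 5134, 1230 and 5511 and those of members 5, 4 and 5. Depth limits Nr4a2 in all groups, and Egr2 and Egr3 in sham.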

Other observations

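Muscle glucose and glycogen genes, a group linked to Nr4a1 in skeletal muscle, were read against the shares of all genes. Of 11 tested, 2 rose and 5 fell after ligation, beside 20.1% and 18% of all genes, a total of 7 that became 4 without sham replicate 2, and with cells against ligation 1 of 11 passed, Pdk4, where 4.19% of all genes rose and 5.69% fell. Pdk4, the kinase that turns off pyruvate dehydrogenase, was at 93.6 ± 4.05 CPM (SD, n = 3) in sham, 97.8 ± 7.04 after ligation and 167 ± 2.78 with cells, a rise of 0.78 (edgeR adjusted p 2.13e-08). Fbp2, the muscle fructose bisphosphatase, fell by 1.44 after ligation (edgeR adjusted p 9.39e-07) and Pgam2 fell by 0.63 (edgeR adjusted p 2.96e-10). The count with cells was 4 with library totals alone, 2 in 2-group fits, and 2 without sham replicate 3 or without ligation replicate 2.

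Circadian clock genes were read against the same shares. Of 14 tested, 6 rose and 3 fell after ligation, beside 20.1% and 18% of all genes. With cells against ligation 2 rose and 6 fell, beside 4.19% and 5.69% of all genes, the total of 8 falling to 5 without ligation replicate 3 and to 4 without cell replicate 3. Bmal1, the core activator of the clock, was at 10.7 ± 1.34 CPM (SD, n = 3) in sham, 3.11 ± 0.335 after ligation and 6.29 ± 1.22 with cells. Per2 rose by 0.90 after ligation (edgeR adjusted p 4.43e-08), and Dbp fell by 0.54 with cells (edgeR adjusted p 1.95e-05). The labels give no time of day of sampling, and its part in the levels of the Egr and Nr4a transcripts was not tested.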
